A study of Mus musculus with 6 samples.

Results

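The 10 genes described here were listed as markers of mouse monocytes and macrophages: Adgre1, Cd68, Mrc1, Cd36, Lyz1, Lyz2, Ly6c2, F13a1, Emb and Ms4a6c. They were taken by symbol from a table of 49585 genes measured by RNA-seq, and all 10 were among the 15812 genes with enough counts to test. The libraries came from acute myeloid leukemia (AML) cells of mice, driven by KMT2A-MLLT3. This oncogene joins KMT2A to MLLT3, a protein that binds DOT1L, which methylates histones. Marrow of diseased mice had been transduced with DOT1L, populations with low and with high expression had been sorted, and RNA was taken 3 days later from cells cultured with the mouse cytokines IL3, IL6 and SCF. The 6 libraries carry 3 labels, NT, DOT1L Low and DOT1L High, here NT, Low and High, each with 1 library of K3174 and 1 of K3117. All 6 are from leukemia with the fusion, per the labels. NT is not spelled out, and it is unknown whether those cells had been transduced or sorted, so a difference from NT may hold handling as well as DOT1L. The K numbers are read from the titles as 2 leukemias. Nothing says that they are separate mice, so p-values may reflect technical spread between samples alone. No source used here gives the age or strain of the mice, or the promoter and species of the introduced DOT1L.

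Monocytes arise in the marrow from granulocyte and monocyte progenitors and leave it with high surface Ly6C. In tissues they can become macrophages, which take up particles and lipids through scavenger and lectin receptors and digest them in lysosomes. AML driven by KMT2A fusions often keeps features of monocytes, and blasts of this kind can carry such markers without being mature cells.

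Total counts ran from 22908445 to 33265848 per library. Levels are library-scaled counts (CPM, the usual depth-normalised unit) on TMM-normalised library sizes, where TMM is edgeR's scaling between libraries. Fold changes come from edgeR's quasi-likelihood model with the leukemia as a block, errors are the SE of the log2 fold change or the SD over 2 leukemias, and a gene was called at a Benjamini-Hochberg adjusted p below 0.05 over all genes tested. The Dot1l gene, whose level the labels name, was counted at 158.0, 152.0 and 136.4 CPM in NT, Low and High of K3174, and at 127.8, 183.7 and 149.8 CPM in K3117, and did not order the libraries as labelled (High over NT adjusted p = 1.00). Whether its count includes the introduced DOT1L is not stated, so groups are called by their labels.

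Lyz2, Adgre1, Ly6c2, F13a1 and Emb rose in the libraries labelled High relative to NT, between 1.38-fold and 4.26-fold. Ms4a6c, Cd68, Mrc1, Cd36 and Lyz1 did not pass the test. Ly6c2, alone of the 10, was also called in the libraries labelled Low, at 1.48-fold. The 5 called members stand against a background of 10.0% of all genes called higher in High (1583 of 15812), 7.32% called lower and 17.3% called in either direction. With library sizes alone or upper quartile factors, higher genes made up 49.1% or 43.9% of calls over all genes, against 57.8% with TMM, and 4 members were called. No member was called lower by edgeR. At an unadjusted p under 0.05 there were 5 members and 4544 of the 15812 genes. DESeq2 also called 5 members higher, beside 1442 genes. The median log2 fold change of the 10 was 0.82, beside -0.01 over all genes tested. Without the leukemia block, 3 members (Adgre1, Ly6c2 and F13a1) and 493 genes were called. Because these are bulk libraries, more cells of a type and more RNA per cell cannot be told apart in any of these values.

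**Figure D1:**
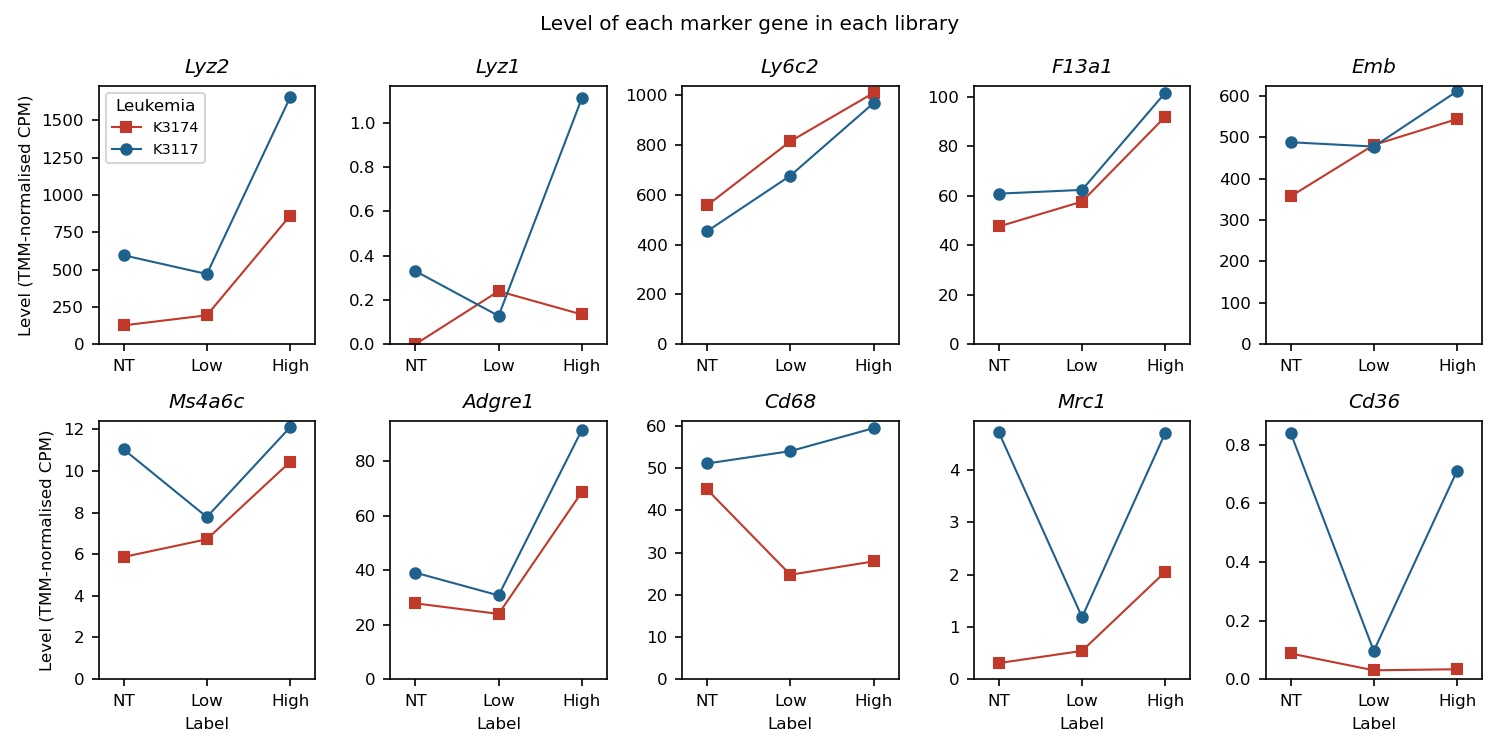
CPM of each of the 10 genes (vertical axes, TMM-normalised, each with its own scale from 0) in the libraries labelled NT, Low and High, with red squares for K3174 and blue circles for K3117, 1 library per point and no error bar. Ly6c2 and F13a1 climb from left to right in both leukemias, Lyz2 and Adgre1 are highest in High in both, and the lines of Cd68 and Mrc1 part between the leukemias.

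Scaled by exon length, the markers covered more than 3 orders of level. The mean over the 6 libraries in CPM per kb of exon was 494.5 for Lyz2 and 272.3 for Ly6c2, and the ranges of these 2 genes over libraries overlapped. Emb followed at 71.4 CPM per kb and Cd68 at 34.8 CPM per kb, each with a range clear of its neighbours above. Adgre1 averaged 14.5 CPM per kb and overlapped both Cd68 and F13a1, which averaged 10.4 CPM per kb. Ms4a6c averaged 4.38 CPM per kb, below every F13a1 value. Mrc1, Lyz1 and Cd36 averaged 0.354, 0.257 and 0.0836 CPM per kb, and their ranges overlapped one another. Of 43 other macrophage genes, 34 had enough counts to test, among them Marco, Slc40a1 and Vcam1. These reached 52.5, 55.6 and 25.3 CPM in their highest libraries, all labelled High. In NT of K3174 and K3117 Marco was at 8.62 and 15.2 CPM, Slc40a1 at 1.71 CPM in both, and Vcam1 at 2.89 and 1.11 CPM. Marco was chosen after its values were seen, and Slc40a1 and Vcam1 by their p for High over NT. The 9 macrophage genes not tested were C1qa, C1qc, Timd4, Folr2 and Retnla, with no count in any library, and Cd5l, Vsig4, C1qb and Spic, with few.

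**Figure D2:**
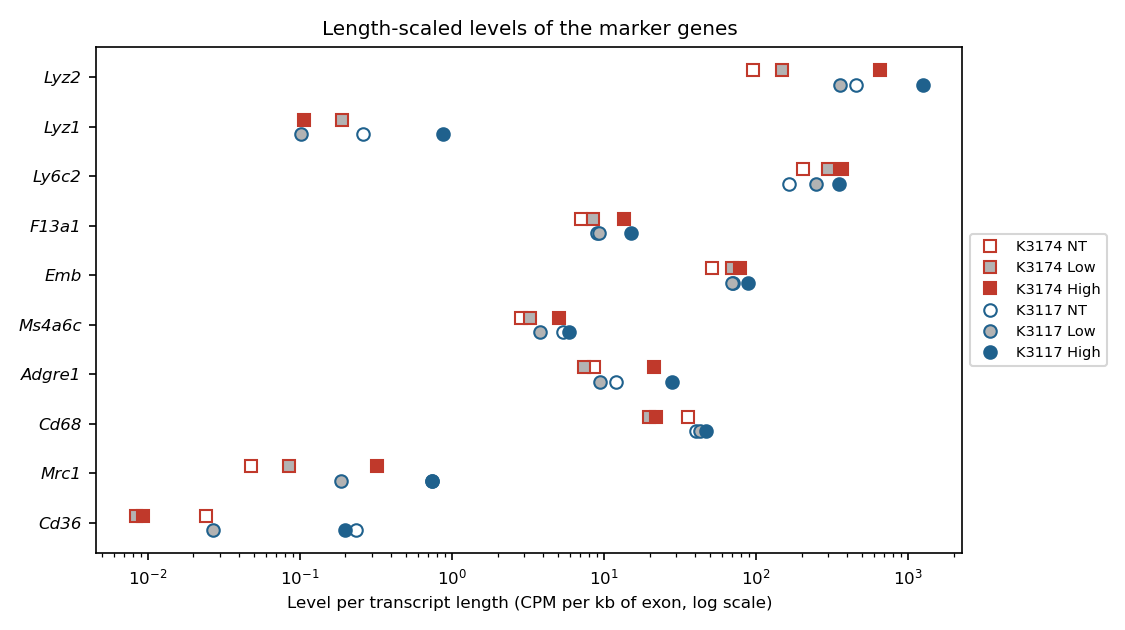
CPM per kb of exon (horizontal axis, log scale) of each marker in each library, with squares for K3174, circles for K3117, and white, grey and filled symbols for NT, Low and High; the K3174 NT value of Lyz1 is 0 and cannot be drawn. Lyz2 and Ly6c2 stand highest and Mrc1, Lyz1 and Cd36 lowest.

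Lyz2 encodes lysozyme M, the antibacterial enzyme of monocytes, macrophages and granulocytes (ENSMUSG00000069516.7, GRCm38 chromosome 10, 117277331 to 117282321, minus strand). In K3174 it was counted at 126.5, 194.1 and 861.9 CPM in NT, Low and High. In K3117 the values were 596.5, 470.7 and 1655 CPM in the same order. Both High libraries were above every other library, whereas NT and Low overlapped. Lyz2 was 4.26-fold higher in High than in NT (log2 2.09 ± 0.24, SE; adjusted p = 0.00011), with within-leukemia log2 differences of 2.77 in K3174 and 1.47 in K3117. High over Low gave 2.00 ± 0.24 (adjusted p = 0.00058). The difference of Low from NT was 0.09 ± 0.23 (adjusted p = 0.97), and its sign depended on which NT library was kept, at 0.71 (adjusted p = 0.00028) without K3117 NT and -0.42 (adjusted p = 0.048) without K3174 NT. Without the block the adjusted p of Lyz2 was 0.27 for High over NT and 0.62 for High over Low.

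Granulocytes express Lyz2 as well, and granulocyte genes also rose in High. Of 14 late neutrophil genes tested, 13 were called higher in High than in NT, with a median log2 fold change of 4.93, and all 15 listed genes had a count in at least 1 library. Their summed level was 162.5, 1372 and 7299 CPM in NT, Low and High of K3174, and 47.0, 153.3 and 1718 CPM in K3117. Primary granule genes rose in 6 of 7, and summed to 6293 and 4672 CPM in High of K3174 and K3117. Their sums were 5933 and 3351 CPM in Low and 2650 and 1247 CPM in NT. For Low over NT, 10 late neutrophil and 6 primary granule genes were called higher (median log2 fold changes 2.09 and 1.81), while Lyz2 was not called. The order of the leukemias differed between the genes: K3174 had the higher late neutrophil sum and the lower Lyz2 level under every label. The part of these cells in the Lyz2 values was not tested.

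Lyz1, the neighbouring lysozyme gene known from Paneth cells of the gut, had 0, 8 and 4 counts in NT, Low and High of K3174, and 11, 4 and 25 counts in K3117 (ENSMUSG00000069515.5, chromosome 10, 117287797 to 117292868, minus strand). These counts were at most 0.123% of the Lyz1 and Lyz2 counts of a library. The 0 of K3174 NT allows a share of up to 0.104% by a floor of 3 counts, and up to 0.128% by the exact Clopper-Pearson 95% interval, both for counting error only. High over NT gave a log2 value of 1.73 ± 0.92 (adjusted p = 0.25), and the fold had a 95% interval of 0.825 to 13.4. The groups overlapped, and a fit at so few counts depends on the prior count. Reads of 150 bases can tell the pair apart: the coding sequences, 444 bases without the stop, differ at 22 bases, the longest run shared by the transcripts is 118 bases, and none of the 1114 windows of 150 bases in Lyz1 occurs in Lyz2. The starts of both coding sequences are shown because 11 of the 22 differences, in capitals, fall in these 120 bases (GRCm38, GENCODE vM21, both on the minus strand, chr10:117292719-117292838 for Lyz1 and chr10:117282123-117282242 for Lyz2).
Lyz1: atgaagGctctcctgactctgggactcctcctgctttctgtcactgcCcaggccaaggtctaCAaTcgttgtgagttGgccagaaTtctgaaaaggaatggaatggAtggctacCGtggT
Lyz2: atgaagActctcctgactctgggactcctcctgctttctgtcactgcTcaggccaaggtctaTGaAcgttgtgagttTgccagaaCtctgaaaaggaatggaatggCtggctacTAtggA
How the deposited counts treated reads that match both genes is not stated. With the pair summed, High over NT was 2.09 ± 0.24 (adjusted p = 0.00011).

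Adgre1 encodes F4/80, the adhesion receptor that defines many mouse macrophages (ENSMUSG00000004730.14, chromosome 17, 57358691 to 57483527, plus strand). It was counted at 27.8, 24.0 and 68.7 CPM in NT, Low and High of K3174. In K3117 it was counted at 39.1, 30.8 and 91.5 CPM. Both High libraries lay above all 4 others, and in both leukemias Low was the lowest of the 3 labels. Adgre1 averaged 80.1 ± 16.1 CPM in High and 33.5 ± 7.97 CPM in NT (SD, n = 2), a 2.40-fold difference (log2 1.26 ± 0.13, adjusted p = 4.0e-05; 95% interval of the fold 1.98 to 2.91). Of the 10 genes it had the smallest p for High over NT. High over Low gave 1.55 ± 0.13 (adjusted p = 8.0e-05), while Low against NT was at -0.28 ± 0.13 (adjusted p = 0.36). Adgre1 was called for High over NT in all 13 alternatives, and for High over Low it missed the threshold without the block (adjusted p = 0.23).

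Cd68 encodes macrosialin, a heavily glycosylated lysosomal membrane protein (ENSMUSG00000018774.13, chromosome 11, 69664213 to 69666153, minus strand). In K3174 it was counted at 45.0, 24.7 and 27.9 CPM in NT, Low and High, and in K3117 at 51.1, 54.0 and 59.5 CPM. NT was the highest label in K3174 and the lowest in K3117, and the groups overlapped in every comparison. High over NT gave -0.25 ± 0.20 (adjusted p = 0.48; interval of the fold 0.618 to 1.15), with -0.69 in K3174 and 0.22 in K3117. The value without the K3117 NT library, which leaves K3174 alone to give the contrast within a leukemia, was -0.70 (adjusted p = 0.00021). The difference of Low from NT was -0.40 ± 0.20 (adjusted p = 0.46), and -0.85 (adjusted p = 4.3e-05) without K3117 NT. High over Low was 0.15 ± 0.20 (adjusted p = 0.84).

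Mrc1 encodes the mannose receptor CD206, a lectin of tissue macrophages (ENSMUSG00000026712.3, chromosome 2, 14229392 to 14332057, plus strand). It was counted at 0.306, 0.540 and 2.05 CPM in NT, Low and High of K3174, from 7, 18 and 61 counts. In K3117 it was at 4.72, 1.19 and 4.71 CPM, from 157, 37 and 106 counts. K3174 climbed with the labels, while K3117 had equal levels in NT and High and a lower one in Low. High over Low was 4.06-fold (log2 2.02 ± 0.52, adjusted p = 0.046), with 1.80 in K3174 and 1.93 in K3117. High over NT gave 0.79 ± 0.48 (adjusted p = 0.33) and Low over NT -1.23 ± 0.53 (adjusted p = 0.34). The High over Low call was lost with library sizes alone (adjusted p = 0.066), upper quartile factors (0.051) and no block (0.78), and without the K3117 Low library it was 1.41 (adjusted p = 0.56). High over NT was called without K3117 NT (2.74, adjusted p = 0.00019) or K3117 High (1.55, adjusted p = 0.021), and Low over NT without K3174 NT (-1.97, adjusted p = 0.00060) or K3174 High (-1.16, adjusted p = 0.039).

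Cd36, a scavenger receptor for oxidised lipoproteins and long-chain fatty acids (ENSMUSG00000002944.15, chromosome 5, 17781690 to 17888801, minus strand), was near the detection limit. K3174 had 2, 1 and 1 counts in NT, Low and High, and K3117 had 28, 3 and 16 counts. Its level was therefore carried by the K3117 NT and High libraries, at 0.842 and 0.711 CPM. High over NT gave -0.40 ± 0.66 (adjusted p = 0.76). Neither Low over NT, at -2.73 ± 0.82 (adjusted p = 0.12), nor High over Low, at 2.33 ± 0.86 (adjusted p = 0.18), was called. Without the K3174 High library, Low over NT passed at -2.73 (adjusted p = 0.041).

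**Figure D3:**
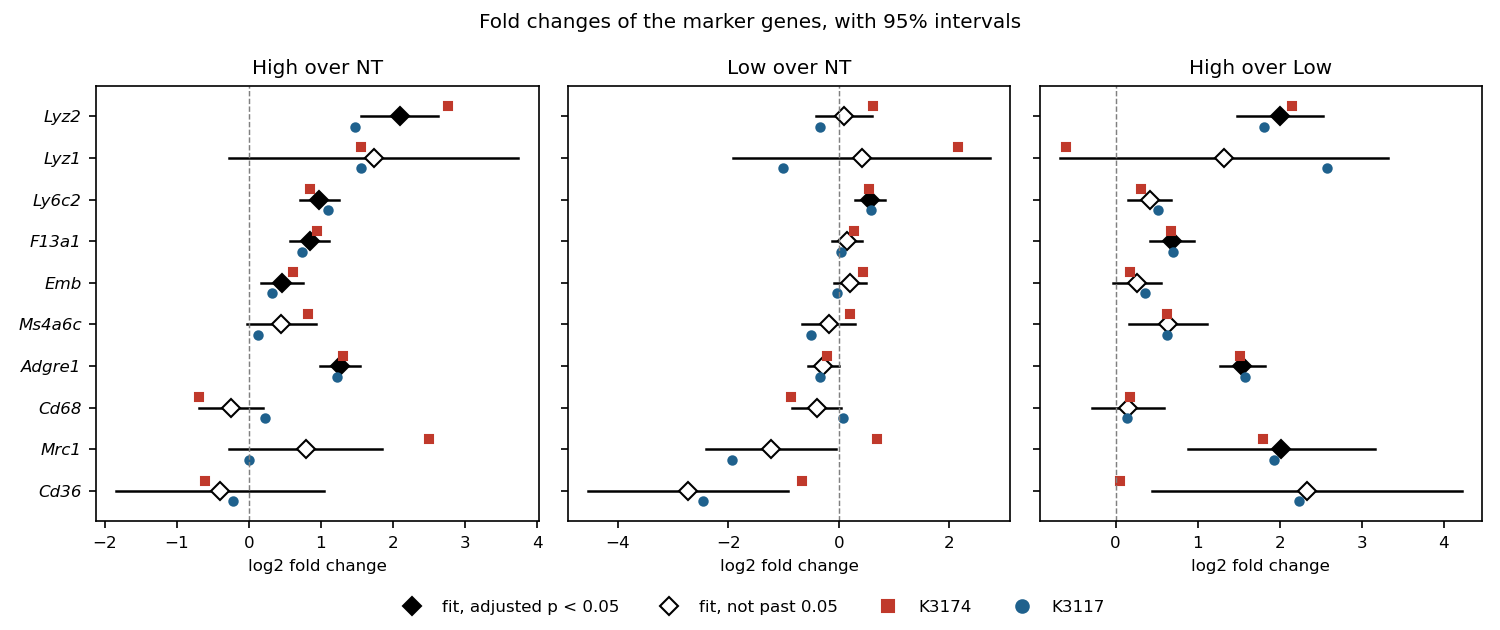
Fitted log2 fold changes of the 10 genes (horizontal axes, diamonds with 95% intervals, filled where the adjusted p is below 0.05) for High over NT, Low over NT and High over Low, with the difference inside each leukemia as a red square (K3174) or a blue circle (K3117). Filled diamonds number 5, 1 and 4. The leukemias lie on opposite sides of 0 for Cd68 and Mrc1 in the left and middle panels (-0.00 for Mrc1 in K3117, left). They also do so for Lyz1, Lyz2, Emb and Ms4a6c in the middle panel and for Lyz1 in the right panel.

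Ly6c2 encodes the Ly6C antigen that marks classical monocytes and is also carried by granulocyte precursors (ENSMUSG00000022584.14, chromosome 15, 75108158 to 75111970, minus strand). It was counted at 557.0, 814.2 and 1008 CPM in NT, Low and High of K3174. The K3117 values were 453.4, 676.4 and 967.5 CPM. No 2 groups overlapped, and both leukemias climbed in the order of the labels. Of all genes tested, 31.6% did not overlap between Low and NT, 50.6% between High and NT and 36.4% between High and Low. High over NT was 1.97-fold (log2 0.98 ± 0.12, adjusted p = 0.00019), and Low over NT was 1.48-fold (0.56 ± 0.12, adjusted p = 0.029). High over Low gave 0.41 ± 0.12 (adjusted p = 0.082), which DESeq2 called (adjusted p = 0.030) and which was also called without either NT library (adjusted p = 0.0026 without K3117 NT and 0.0028 without K3174 NT). The Low over NT call was lost without the Low library of K3174 (adjusted p = 0.44) or of K3117 (0.13), and without the block (0.61). High over NT was called in all 14 alternatives.

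Ly6c1, the close copy of Ly6c2 known from endothelial cells, had between 3 and 22 counts per library, at most 0.101% of the summed counts of the pair. Its own High over NT value was 1.43 ± 0.62 (adjusted p = 0.15). The pair is closer than the lysozymes, with 9 of 393 coding bases different. Of 695 windows of 150 bases in Ly6c1, 39 (5.61%) were found unchanged in Ly6c2. A single read from those windows cannot be assigned by its own sequence, and read pairs were not examined. Their first 70 coding bases hold 6 of the 9 differences, in capitals (chr15:75048442-75048511 for Ly6c1 and chr15:75111598-75111667 for Ly6c2, minus strand, GRCm38).
Ly6c1: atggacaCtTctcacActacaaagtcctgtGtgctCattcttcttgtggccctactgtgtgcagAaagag
Ly6c2: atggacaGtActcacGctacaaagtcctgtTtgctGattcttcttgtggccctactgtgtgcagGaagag
The summed pair gave 0.98 ± 0.12 for High over NT (adjusted p = 0.00019), the value of Ly6c2 alone.

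F13a1 encodes the A subunit of coagulation factor XIII, made by monocytes, macrophages and megakaryocytes (ENSMUSG00000039109.15, chromosome 13, 36867178 to 37050244, minus strand). It was counted at 47.5, 57.6 and 91.9 CPM in NT, Low and High of K3174, and at 60.8, 62.3 and 101.5 CPM in K3117. Both High libraries were above the rest, and Low was above NT within each leukemia, while the groups Low and NT overlapped. F13a1 was 1.79-fold higher in High than in NT (log2 0.84 ± 0.12, adjusted p = 0.00059), a call kept in all 13 alternatives. High over Low gave 0.69 ± 0.12 (adjusted p = 0.0067), and missed the threshold without K3117 Low (0.60, adjusted p = 0.17), without K3174 High (0.64, adjusted p = 0.073) or without the block (adjusted p = 0.31). Low over NT was 0.15 ± 0.12 (adjusted p = 0.77). Of 10 megakaryocyte and platelet genes tested, 3 were called higher in High than in NT, beside 10.0% of all genes. The 12 listed genes, each with a count, summed to 102.6 and 89.4 CPM in High of K3174 and K3117, against 68.5 and 71.0 CPM in NT. Their part in the F13a1 result was not tested.

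Emb encodes embigin, an immunoglobulin family glycoprotein that accompanies monocarboxylate transporters to the membrane (ENSMUSG00000021728.7, chromosome 13, 117208536 to 117274415, plus strand). In K3174 it was counted at 357.0, 481.3 and 543.8 CPM in NT, Low and High, and in K3117 at 487.9, 477.4 and 611.0 CPM. High exceeded the other labels in both leukemias, and the groups High and NT did not overlap, as for 50.6% of all genes. The difference was the smallest of the called ones, 1.38-fold (log2 0.46 ± 0.13, adjusted p = 0.034; interval 1.12 to 1.68). It was not called without K3117 High (adjusted p = 0.11), K3174 NT (0.28, adjusted p = 0.13) or K3174 High (0.16), without the block (0.20), or with library sizes alone (0.060) or upper quartile factors (0.081). Neither Low over NT, at 0.20 ± 0.13 (adjusted p = 0.67), nor High over Low, at 0.26 ± 0.13 (adjusted p = 0.40), was called. Without K3117 NT, Low over NT of Emb was 0.39 (adjusted p = 0.047).

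Ms4a6c belongs to the MS4A family of membrane proteins with 4 spans, and its locus holds the related Ms4a6b and Ms4a6d (ENSMUSG00000079419.4, chromosome 19, 11469366 to 11482192, plus strand). It was counted at 5.87, 6.72 and 10.4 CPM in NT, Low and High of K3174. In K3117 it was at 11.0, 7.78 and 12.1 CPM. The groups High and NT overlapped, since K3117 NT was above K3174 High. High over NT gave 0.45 ± 0.22 (adjusted p = 0.20; interval of the fold 0.985 to 1.90), and 0.83 (adjusted p = 0.0080) without K3117 NT. High over Low gave 0.64 ± 0.22 (adjusted p = 0.14), with the same difference of 0.63 in both leukemias, and was called without K3117 NT (adjusted p = 0.0089) or K3174 NT (0.011). Low over NT was -0.18 ± 0.22 (adjusted p = 0.89).

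Shares of counts were compared within the Ms4a6 genes. Ms4a6b made up 31.6% of the Ms4a6b and Ms4a6c counts in K3174 NT (exact Clopper-Pearson 95% interval 25.2% to 38.6%), 22.0% in Low (17.3% to 27.2%) and 15.3% in High (11.8% to 19.4%). In K3117 the shares were 27.6% (23.8% to 31.7%), 21.4% (16.9% to 26.4%) and 12.8% (9.32% to 17.0%) in the same order. The intervals of High and NT did not overlap in either leukemia, but they cover counting error only and are no test between conditions. Ms4a6d made up 26.0%, 24.6% and 35.4% of the Ms4a6d and Ms4a6c counts in NT, Low and High of K3174. In K3117 it made up 41.5%, 31.9% and 47.8%, and its share was lowest in Low in both leukemias. The intervals of NT and Low overlapped in K3174 (19.7% to 33.0% and 19.8% to 29.9%). They did not in K3117 (37.6% to 45.4% and 27.1% to 37.0%). In edgeR's fit Ms4a6b gave -0.89 ± 0.30 for High over NT (adjusted p = 0.060), and Ms4a6d was called higher at 0.89 ± 0.28 (adjusted p = 0.047). The 3 genes summed gave 0.41 ± 0.20 for High over NT (adjusted p = 0.20) and 0.81 ± 0.20 for High over Low (adjusted p = 0.036). The longest run that the Ms4a6c transcript shares is 96 bases with Ms4a6b and 44 bases with Ms4a6d.

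**Figure D4:**
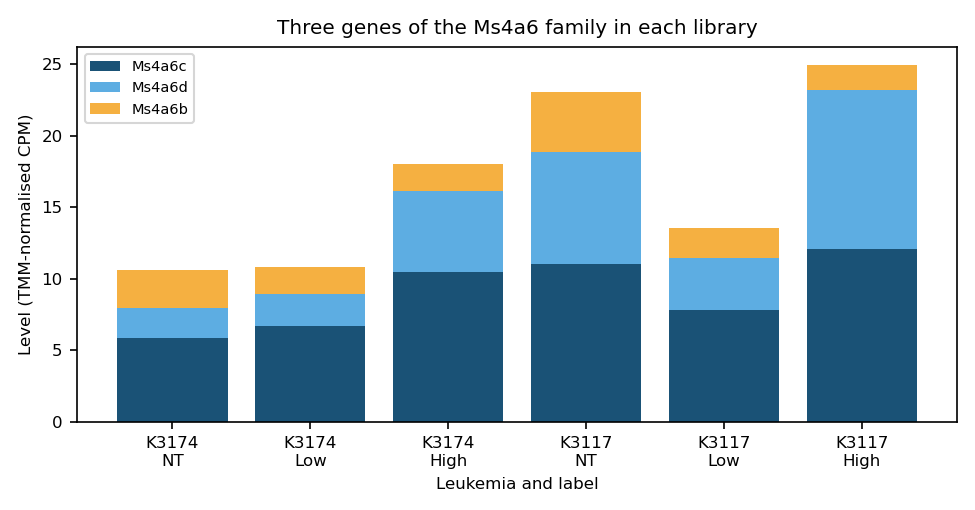
Stacked CPM (vertical axis, from 0) of Ms4a6c, Ms4a6d and Ms4a6b in each library, 1 bar per library with no error bar. The Ms4a6b segment shrinks relative to Ms4a6c from NT through Low to High in both leukemias, while the total is lowest in K3174 NT.

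Among the libraries labelled Low, Ly6c2 was the member called, beside a background of 3.34% of genes called in either direction (528 genes), 2.05% higher and 1.29% lower. At an unadjusted p under 0.05 there were 4 members and 2097 of the 15812 genes. Of these members Ly6c2 was higher in Low, while Adgre1, Mrc1 and Cd36 were lower. DESeq2 called 1 member and 575 genes. The median log2 fold change of the 10 was -0.05 for Low over NT, and -0.01 over all genes. For Low over NT the leukemias shared the sign in 4 of the 10, against 52.5% of all genes. For High over NT they shared it in 8 of the 10 and 65.7% of all genes, and for High over Low in 9 of the 10 and 63.1% of all genes. Without the block no gene and no member was called by edgeR, and 950 genes and 1 member had an unadjusted p under 0.05. For High over Low, Adgre1, Mrc1, Lyz2 and F13a1 were called, against 5.48% of genes in either direction, 4.12% higher and 1.35% lower. DESeq2 called 5 members and 860 genes for that comparison. The groups High and Low did not overlap for 7 of the 10 genes and for 36.4% of all genes, and the groups High and NT for 5 of the 10 and 50.6% of all genes. Without the block edgeR called no gene for High over Low, with 1238 genes and 4 members at an unadjusted p under 0.05. A climb from NT through Low to High in both leukemias was seen for Ly6c2 and F13a1, and for 12.7% of all genes, and a fall in that order for none of the 10 and for 11.0% of all genes. Comparisons that share the NT or the High libraries are not independent of each other.

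The leukemias themselves differed in these markers. Adgre1, Cd68, Mrc1, Cd36 and Lyz2 were lower in K3174 than in K3117, beside 9.37% of genes called in either direction, 3.05% higher and 6.32% lower. Lyz2 differed by -1.48 ± 0.19 on the log2 scale (adjusted p = 0.00048), Cd68 by -0.80 ± 0.17 (adjusted p = 0.0096), and Adgre1 by -0.42 ± 0.10 (adjusted p = 0.023). Mrc1 gave -1.89 ± 0.43 (adjusted p = 0.016) and Cd36 -3.27 ± 0.69 (adjusted p = 0.010), both from few counts in K3174. All 4 surface and lysosome receptors were thus called, and of the monocyte markers Ly6c2, F13a1, Emb and Ms4a6c none was by edgeR, with 1 of them, Ms4a6c, at an unadjusted p under 0.05 (-0.44 ± 0.18, adjusted p = 0.18). Ly6c2 was the member with the higher level in K3174 (0.21 ± 0.10, adjusted p = 0.28), and DESeq2 called 4 members and 1310 genes. Leaving out K3117 Low, K3117 High, K3174 Low or K3174 High took Adgre1 to an adjusted p of 0.11, 0.14, 0.12 or 0.13. Cd68 missed the threshold without K3117 Low (0.051) or K3174 Low (0.053), and Cd36 without K3117 High (0.063) or with DESeq2 (0.073).

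Genes with the most similar profile over the 6 libraries were sought for the 7 members with a mean of at least 5 CPM, among 9986 other genes at that level, by the root mean square difference of centred log2 CPM. For Lyz2 these were Bst1 (0.26) and the chemokine Ccl6 (0.29), and for Adgre1 the proteoglycan Vcan (0.18) and the interleukin 1 antagonist Il1rn (0.18). Ly6c2 was closest to Itpripl2 (0.047) and the tetraspanin Cd63 (0.063), F13a1 to Mtss1 (0.045) and Dram2 (0.060), and Emb to Asah1 (0.046) and 9930111J21Rik2 (0.047). Cd68 was closest to Tpst1 (0.12) and S100a10 (0.14), and Ms4a6c to Btg1 (0.090) and Nabp1 (0.097). No gene was named for more than 1 member. With 6 libraries of shared origin, likeness is a description of these samples.

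Other monocyte genes moved both ways in the libraries labelled High. Of 36 tested genes of a list of 38, 18 were called higher and 9 lower (median log2 fold change 0.62). Csf1r, the receptor for macrophage colony-stimulating factor, was at 125.3 and 217.2 CPM in High of K3174 and K3117, against 43.7 and 89.6 CPM in NT (1.40 ± 0.12, adjusted p = 1.7e-05). Cybb, the catalytic subunit of the phagocyte NADPH oxidase, rose by 1.84 ± 0.18, Sirpa, the receptor for CD47, by 1.05 ± 0.12, and Chil3, a chitinase-like protein also made by granulocyte precursors, by 4.40 ± 0.44. Ccr2, the chemokine receptor by which monocytes leave the marrow, was at 49.5 and 80.8 CPM in High, against 88.7 and 238.6 CPM in NT (-1.21 ± 0.16, adjusted p = 0.00028). Irf8, a transcription factor needed for monocytes and dendritic cells, fell by 1.09 ± 0.20 on the log2 scale, Ly86, the partner of RP105, by 1.04 ± 0.15, and the chemokine Ccl9 by 0.94 ± 0.12.

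In the libraries labelled Low, 1 of the monocyte genes was called higher and 5 lower (median -0.27). Hp, haptoglobin, was 0.94 ± 0.20 higher (adjusted p = 0.024), while Ccr2 fell by 1.56 ± 0.16 (adjusted p = 0.00040) and Fn1, fibronectin, by 2.38 ± 0.32 (adjusted p = 0.0020). For High over Low, 17 were called higher and 2 lower (median 0.78). Without the block the monocyte counts for High over NT were 3 higher and 1 lower. Leaving out a library moved the Low over NT counts to between 0 and 5 higher and between 2 and 8 lower, the extremes being without K3174 Low and without K3117 NT for the higher ones.

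Of the 34 tested macrophage genes, 18 were called higher and 4 lower in High than in NT (median 0.72). Slc40a1, the iron exporter ferroportin, was at 55.6 and 28.5 CPM in High of K3174 and K3117, against 1.71 CPM in NT of both (4.51 ± 0.24, adjusted p = 6.6e-07). Vcam1, an adhesion molecule of marrow and spleen macrophages, rose by 3.82 ± 0.36, the lectin Mgl2 by 2.41 ± 0.16 and lipoprotein lipase, Lpl, by 2.01 ± 0.16. Clec10a, the neighbouring lectin gene of Mgl2, fell by 1.79 ± 0.21 on the log2 scale, and Cd163, the haptoglobin-hemoglobin receptor, by 2.41 ± 0.52, at no more than 2.07 CPM in any library. The lipid carrier Fabp5 fell by 0.97 ± 0.16 and Lgmn, the lysosomal protease legumain, by 0.66 ± 0.20 (adjusted p = 0.041). In Low, 4 were called higher, led by Slc40a1 (2.69 ± 0.24) and Mgl2 (1.39 ± 0.16), and 3 lower, with Clec10a at -1.13 ± 0.20 and the tetraspanin Cd9 at -0.88 ± 0.17 (median -0.18). These Low counts ran between 2 and 5 higher and between 0 and 8 lower when a library was left out, with 2 and 0 without K3174 Low. For High over Low 17 were called higher and, by edgeR, none lower (median 0.81). At an unadjusted p under 0.05 there were 25, beside 2417 of all 15812 genes, and DESeq2 called 16 higher and 0 lower. Without the block 4 were called higher for High over NT.

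**Figure D5:**
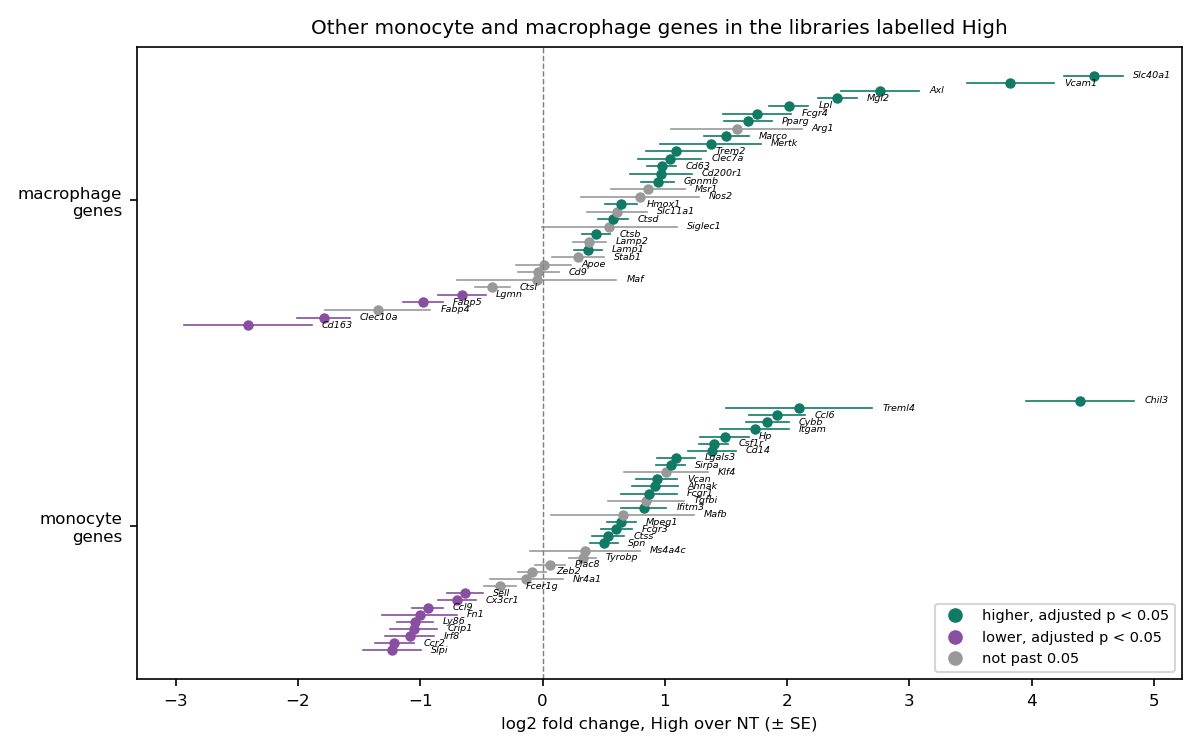
Log2 fold change for High over NT (horizontal axis, ± SE) of each tested gene of the other macrophage and other monocyte lists, green where called higher, purple where called lower and grey where not past an adjusted p of 0.05. The monocyte list splits into 18 higher and 9 lower genes, and Slc40a1, Chil3 and Vcam1 lie farthest to the right.

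Relatives of the members by gene family made up a further list. Of 18 tested, 9 were called higher and 2 lower in High than in NT (median 0.53). Ms4a3, an MS4A gene of granulocyte and monocyte progenitors, was at 448.5 and 344.8 CPM in High of K3174 and K3117, against 225.3 and 125.9 CPM in NT (1.23 ± 0.14, adjusted p = 9.0e-05). Adgre4, in the family of Adgre1, rose by 1.67 ± 0.32, Ly75, a lectin in the family of Mrc1, by 1.53 ± 0.21, and Tgm2, a transglutaminase like factor XIII, by 1.05 ± 0.19. Mrc2, another gene of the mannose receptor family, fell by 4.61 ± 0.79, at no more than 2.16 CPM in any library. Its counts in NT, Low and High were 5, 5 and 0 in K3174, and 72, 22 and 2 in K3117. Ly6a, the Sca-1 antigen, fell by 1.53 ± 0.42 (adjusted p = 0.027). In Low 1 rose, Ms4a3 (0.81 ± 0.14), and 1 fell, Ly6a (-2.39 ± 0.44). For High over Low 5 were called higher.

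Of the lists for further cell types, mast cell and basophil genes were called higher in High in 7 of 10 tested, eosinophil genes in 7 of 8 and dendritic cell genes lower in 5 of 10. B cell genes were lower in 2 of 6 and erythroid genes in 1 of 7. Of all genes tested, 10.0% were called higher and 7.32% lower. Of 3 tested T and NK cell genes 1 was higher and 2 were lower. Of 5 tested stromal, endothelial and adipocyte genes, none was called by edgeR, and 2 had an unadjusted p under 0.05, as had 4544 of all 15812 genes. The part of any such cells in the marker values was not tested.

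The sequence before the transcription start was compared for 9 members with a RefSeq promoter window (250 bases before to 50 after the start, GRCm38.p6). Motifs of 4 factors of myeloid genes were searched on both strands by their letters alone. The C/EBP motif TTNNGNAA occurred in 8 of the 9 windows, Emb lacking it, and in 40.7% of all 32851 windows. The PU.1 core GAGGAA occurred in Cd68, Mrc1, Ly6c2 and F13a1 and in 28.3% of all windows. The RUNX motif TGTGGT occurred in Lyz2 and Ly6c2 (16.8% of all), and the AP-1 motif TGANTCA in Cd68 (7.81% of all). The PU.1 and C/EBP letters can share bases, which happened in none of the 9 windows. The bases before the start are shown for the called genes Lyz2, Ly6c2 and F13a1 and, for comparison, Cd68, which was not called. All 4 lie on the minus strand and are printed 5′ to 3′ along the gene with matches in capitals, at chr10:117282322-117282522, chr15:75111972-75112221, chr13:37050245-37050494 and chr11:69666171-69666420 in that order.
Lyz2: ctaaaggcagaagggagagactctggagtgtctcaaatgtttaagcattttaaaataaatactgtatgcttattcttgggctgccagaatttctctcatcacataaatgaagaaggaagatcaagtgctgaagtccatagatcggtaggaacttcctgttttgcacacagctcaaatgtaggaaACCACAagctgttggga
Ly6c2: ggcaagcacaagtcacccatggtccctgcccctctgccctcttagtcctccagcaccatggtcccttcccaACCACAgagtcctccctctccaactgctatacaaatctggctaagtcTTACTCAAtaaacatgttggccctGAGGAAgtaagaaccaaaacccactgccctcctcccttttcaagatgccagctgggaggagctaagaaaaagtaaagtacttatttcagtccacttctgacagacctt
F13a1: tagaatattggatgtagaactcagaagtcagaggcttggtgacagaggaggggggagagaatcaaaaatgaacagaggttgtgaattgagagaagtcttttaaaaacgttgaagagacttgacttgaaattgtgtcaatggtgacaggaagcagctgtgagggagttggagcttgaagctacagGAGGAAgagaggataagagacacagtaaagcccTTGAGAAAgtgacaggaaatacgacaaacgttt
Cd68: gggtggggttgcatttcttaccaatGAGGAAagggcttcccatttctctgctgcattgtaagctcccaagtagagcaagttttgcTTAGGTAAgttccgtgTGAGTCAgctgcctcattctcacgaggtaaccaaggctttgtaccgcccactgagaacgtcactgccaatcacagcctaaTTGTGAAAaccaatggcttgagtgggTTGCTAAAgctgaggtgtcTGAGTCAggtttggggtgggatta
The Lyz2 run holds a reverse-strand RUNX match, and Ly6c2 holds matches of PU.1, C/EBP and RUNX. The Lyz2 run has 201 bases, ending where the GENCODE gene begins and short of the RefSeq start. Its end cuts the 1 C/EBP match of the Lyz2 window, which is therefore not in capitals. F13a1 holds 1 PU.1 and 1 C/EBP match before the start, and Cd68 holds 6 matches, among them both AP-1 matches. A match of letters is a description of the window and no sign of binding.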

How the data were processed

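RNA-seq was performed on 6 libraries read in pairs of 150 bases on an Illumina HiSeq from RNeasy extracts, per the labels' protocols. The authors deposited whole-number counts per gene, 1 column per library, and these entered every fit unchanged. Per the submitters' processing notes, kallisto, STAR, STAR-Fusion, DESeq2 and mm10 are named, with no role or version. Which tool counted, with what annotation, strand setting and handling of reads with several matches, is not given in the sources used here. Symbols and positions came from GENCODE vM21 (GRCm38, counted from 1), which matched 99.5% of 49585 IDs, while 259 IDs without a match took 0.0204% of a library's counts or less. Genes with counts too low were removed by edgeR's expression filter, leaving 15812 genes with 99.9218% to 99.9461% of each library's counts.

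In R 4.3.3 with edgeR 4.0.16, a quasi-likelihood model with label and leukemia (the block) as terms was fitted to the 6 libraries together, after TMM scaling (factors 0.973 to 1.04), with 2 residual and 9.38 prior degrees of freedom. The block follows the titles, where every label has 1 library of each K number. Deviations from the group means correlated between same-numbered libraries at 0.57 (NT and Low), 0.44 (NT and High) and 0.64 (Low and High). The SE is the log2 fold change divided by the root of F. A prior count of 2 was added for differences inside a leukemia. Alternatives were other scalings, DESeq2 1.42.0, other filters, no block, summed paralogs and each library left out. The script was tested on simulated data.

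The 10 members and 13 further gene lists were chosen with earlier results of these data known, so no list was tested. Named are all members, their paralogs, and per further list up to 4 genes per direction with the smallest p for High over NT and 2 for Low over NT. Per cell type list beyond monocytes, macrophages and relatives, counts are given.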

Additional observations from a re-analysis of the deposited data

Results flagged for a closer look

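Of the 10 genes, 6 moved in opposite directions in the leukemias between 2 labels; with 1 library per label in each leukemia the difference between the leukemias was not tested. Values are log2 differences within a leukemia. For High over NT, Cd68 was at -0.69 in K3174 and 0.22 in K3117, and Mrc1 at 2.50 in K3174 and -0.0023 in K3117, where NT and High were level. For Low over NT, Cd68 was at -0.86 in K3174 and 0.080 in K3117, Mrc1 at 0.70 and -1.93, and Lyz2 at 0.62 and -0.34, K3174 first in each. For the same comparison Emb was at 0.43 in K3174 and -0.031 in K3117, and Ms4a6c at 0.19 in K3174 and -0.50 in K3117. Lyz1, with at most 25 counts, was at 2.16 in K3174 and -1.02 in K3117 for Low over NT, and at -0.60 and 2.58 for High over Low.

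In K3117 the NT library was above Low for Lyz2, Ms4a6c, Mrc1, Emb, Adgre1, Cd36 and Lyz1. It was the highest of that leukemia for Cd36, and level with High for Mrc1. Among all genes tested, 52.5% kept 1 direction for Low over NT and 65.7% for High over NT.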

How the results depend on the processing

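Fold changes of the 10 genes kept their direction under the scaling alternatives and DESeq2 for every called value. Lyz2, Low over NT, reversed without NT of K3174 (-0.42, adjusted p = 0.048), and was 0.71 (adjusted p = 0.00028) without NT of K3117. Without a filter on low counts, 1071 genes were called for Low over NT, 1425 for High over Low, and 2 members for Low over NT, the added one being Mrc1 (-1.22, adjusted p = 0.013). Keeping a mean CPM of at least 5, which leaves 7 members, 343, 522 and 849 genes were called for Low over NT, High over Low and K3174 over K3117, with 3 members for the last. Without the replicate block edgeR called 493 genes and 3 members for High over NT, and 0 genes and 0 members for Low over NT and for High over Low (950 and 1238 genes, 1 and 4 members, at an unadjusted p under 0.05). K3174 against K3117 could not be fitted without it.

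Leaving out each library in turn, which assumes that the lone library of a label varies like the other groups, gave 1927 to 4394 genes and 4 to 8 members for High over NT, 144 to 1483 genes and 0 to 4 members for Low over NT, 335 to 1982 genes and 2 to 6 members for High over Low, and 829 to 2642 genes and 3 to 5 members for K3174 over K3117. The highest gene count came without K3117 NT for all 4. Low over NT had its lowest without K3174 Low, High over Low and K3174 over K3117 without K3117 Low, and High over NT without K3174 High. The cause was not tested.

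With upper quartile factors the median over all genes for High over NT was -0.11 (log2), against -0.01 with TMM, and the median of the 10 members 0.72. CPM on library sizes alone differed by at most 3.49% from the printed values. Counts limit Lyz1, Cd36 and, in K3174, Mrc1.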

Other observations

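The leukemias differed in genes of several lineages, in both directions. K3174 had lower levels than K3117 for 19 of 34 tested other macrophage genes and higher for 1 (median log2 difference -0.78), and lower for 14 and higher for 2 of 36 other monocyte genes (median -0.19). Dendritic cell genes were lower in K3174 in 5 of 10 (median -1.15), stromal, endothelial and adipocyte genes in 2 of 5, and B cell, erythroid and megakaryocyte genes in 1 each of 6, 7 and 10. T and NK cell genes were higher in 1 of 3. By contrast, 11 of 14 late neutrophil genes (median 1.70), 7 of 8 eosinophil genes (median 2.08), 8 of 10 mast cell and basophil genes (median 1.95) and 6 of 7 primary granule genes (median 1.05) were called higher in K3174. Over all 15812 genes, 3.05% were called higher and 6.32% lower in K3174. The summed eosinophil level was 92.7, 151.4 and 1076 CPM in NT, Low and High of K3174, and 12.5, 58.9 and 438.6 CPM in K3117.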
